A study of Drosophila melanogaster with 2 samples.

Results

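Short contact domains of the Kc167 genome are described here: the 345 domains of at most 10 kb among the 2126 domains of the deposited list, 16.2% of it (exact 95% interval 14.7 to 17.9%). They were chosen by length alone, as the listed end minus the listed start. The list came from Hi-C of Kc167, an embryonic Drosophila melanogaster cell line kept in culture and given no treatment other than fixation with paraformaldehyde. The 2 samples form 1 group of biological replicates. DpnII cut the cross-linked chromatin and its ends were ligated while bound to beads, and the authors combined both samples into 1 map before domains and loops were listed on the dm3 build. No value below therefore has a spread between samples. The intervals cover counting error among domains of 1 map, the depth behind each domain is unknown, and neighbouring domains are not independent, so differences between length classes are descriptions without a test.

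A contact domain is a stretch of chromosome whose parts meet each other more often than they meet the flanking sequence. In Drosophila, long domains are typically made of inactive chromatin, while regions dense in active genes are split into small domains with borders near active promoters. A loop is a pair of anchors, positions that meet more often than the sequence around them. No genome of the dm3 build was used here, so no sequence is printed and no gene is assigned to a domain.

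The short domains were 6 to 10 kb long, with a median of 8.5 kb and quartiles at 7.5 and 9 kb, against a median of 21.5 kb for the whole list. Although they made up 16.2% of the domains, they covered 2.89 Mb of the 95.4 Mb in domains, or 3.03%. Their number was lowest at the short limit, with 9 domains of 6 kb and 14 of 6.5 kb, and highest at 9 kb, with 67 domains. At the edge of the rule, 45 domains were 9.5 kb and 35 were 10 kb long, and just outside it 50 were 10.5 kb and 36 were 11 kb long. The median scores at these 4 lengths were 1.22, 1.26, 1.18 and 1.23.

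The 9 shortest domains lay on 4 arms. On 2L they spanned 7536001 to 7542000, 9996001 to 10002000, 10003501 to 10009500 and 14348501 to 14354500, and those from 9996001 and from 10003501 were direct neighbours 1.5 kb apart. The others were 12059001 to 12065000 on 2R, 8621001 to 8627000 and 21503001 to 21509000 on 3L, and 14727001 to 14733000 and 19156001 to 19162000 on X. Their scores ran from 0.761 to 0.953, all below the median of 1.05 over the short domains.

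Every large arm held short domains, in similar proportions. They formed 17.6% of the domains of 3R (89 of 507, exact interval 14.3 to 21.2%), 17.2% on 3L (70 of 407, 13.7 to 21.2%), 17.2% on 2R (76 of 443, 13.8 to 21.0%), 15.1% on X (58 of 384, 11.7 to 19.1%) and 14.3% on 2L (52 of 364, 10.9 to 18.3%). All these intervals overlap. Per length of arm, short domains were most frequent on 2R, with 36.0 in 10 Mb (28.3 to 45.0, exact Poisson). Among the large arms 2L had the fewest, with 22.6 in 10 Mb (16.9 to 29.7). Chromosome 4, the small dot chromosome, had none among its 21 domains, of which the shortest was 10.5 kb long. With so few domains, a count of 0 allows a share of up to 14.3% (3 counts of 21), and the exact interval reaches up to 16.1%, so a share like that of 2L or X was not detectable as different.

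**Figure D1:**
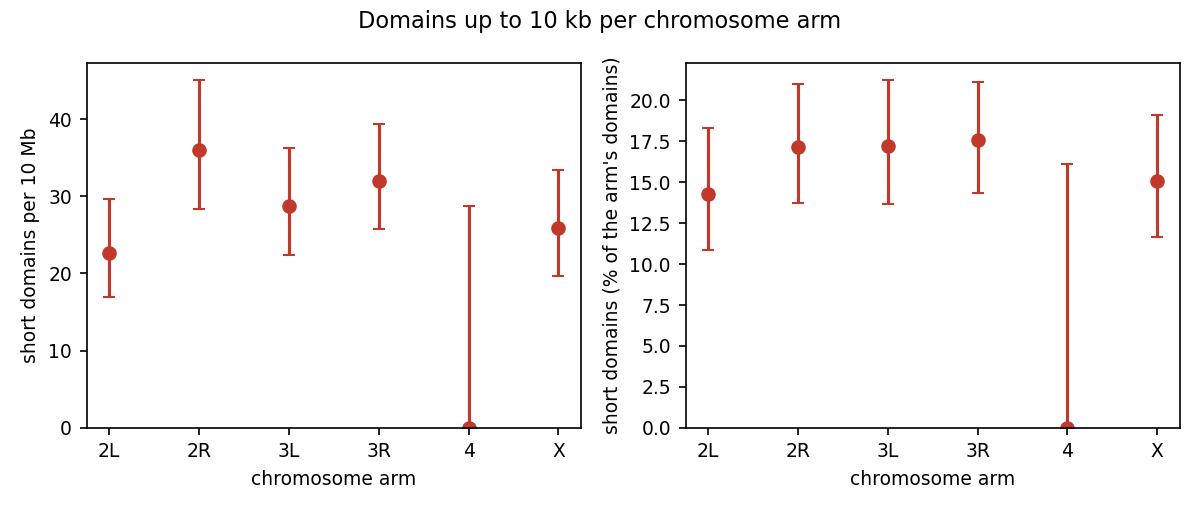
Domains up to 10 kb on each chromosome arm, per 10 Mb of arm (left) and as a percentage of the arm's domains (right), with exact 95% intervals that cover counting error only. The 5 large arms lie between 14.3 and 17.6% of domains, and chromosome 4 has none.

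Along the arms short domains were spread unevenly. Windows of 1 Mb also differed in their number of domains of any length, for which these counts do not allow. Of 117 windows, 15 held no short domain (2 to 19 domains of any length), 21 held 1, 25 held 2, and the fullest held 10. The incomplete last window of each arm was left out, and with it 8 of the 345 short domains. Those fullest windows adjoin each other near the distal end of 2R, with 10 short domains among 27 from 19000001 to 20000000 and 10 among 30 from 20000001 to 21000000. Next came 3L from 8000001 to 9000000, with 9 among 27. In the 2 Mb at the tip of 2R, 20 of 57 domains were short, against 1 of 29 in the 2 Mb at the tip of X. In the 2 Mb at the centromere end of 3R, 15 of 45 were short. Summed over the 5 large arms, the share was 25.5% at the centromere ends (27 of 106, exact interval 17.5 to 34.9%) and 21.6% at the tips (47 of 218, 16.3 to 27.6%). Over the whole list it was 16.2%. Each sum leaned on 1 arm, with 15 of the 27 from 3R and 20 of the 47 from 2R. By arm the share ran from 11.1% (3L) to 33.3% (3R) at the centromere ends and from 3.45% (X) to 35.1% (2R) at the tips.

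Most short domains stood singly, and most longer domains likewise had no short neighbour. Taken in order along each arm, 227 of the 345 (65.8%, exact interval 60.5 to 70.8%) had no other short domain directly beside them, and 118 (34.2%) belonged to 51 unbroken rows. Of domains with a neighbour on each side, 65.6% of the short ones (60.3 to 70.6%, n = 343), 71.1% of the longer ones (69.0 to 73.2%, n = 1771) and 70.9% of those over 10 to 20 kb (67.3 to 74.3%, n = 674) had no short neighbour. Of these rows 40 held 2 short domains, 8 held 3, 1 held 4 and 2 held 5. The distance from one short domain to the next on the arm had quartiles at 35.9 and 473 kb around a median of 179 kb (interval 147 to 217 kb, 340 steps).

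One of the rows of 5 lay in the dense distal part of 2R, from 19813001 to 19875500. Its members were 7, 6.5, 9, 9 and 9.5 kb long and were separated by 1, 17.5, 2 and 1 kb. All 5 had scores between 0.815 and 0.970, below the median of the short domains. The other row of 5 lay on 3R from 1417501 to 1494000, with members of 8, 10, 8.5, 9.5 and 8 kb separated by 13, 2, 4 and 13.5 kb. Its first 3 members scored 1.26, 1.22 and 1.22, and the last 2 scored 0.886 and 1.04. The row of 4, on 2R from 8580001 to 8769000, included a stretch of 103.5 kb without a domain, so its members were neighbours in the list only. Rows depended on such stretches: when a gap over 2 kb ended a row, 18.3% of short domains were in rows of 2 or more.

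**Figure D2:**
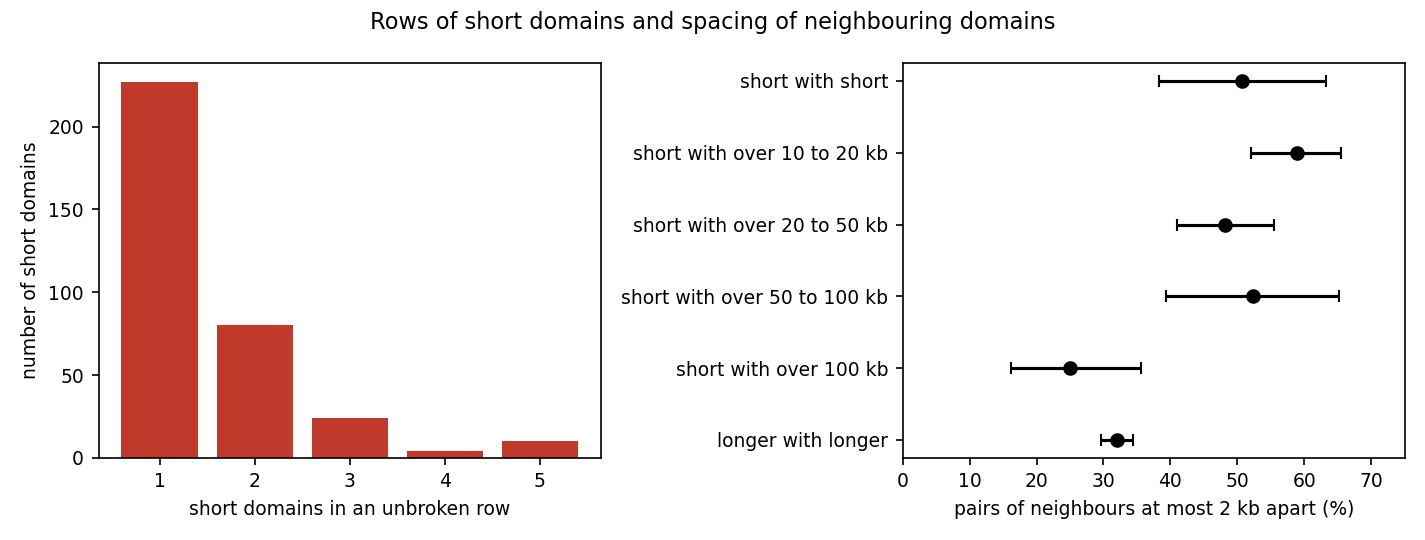
Left, number of short domains by the length of the unbroken row they belong to; 227 stand singly and 10 are in rows of 5. Right, share of neighbouring pairs at most 2 kb apart, with exact 95% intervals, by the length of the partner; the share is 25% for short domains beside domains over 100 kb and 48.2 to 58.9% beside partners of 10 to 100 kb.

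The neighbours of short domains were of ordinary length. Of their 688 direct neighbours 134 were short, or 19.5% (exact interval 16.6 to 22.6%), against 15.6% of the 3552 neighbours of longer domains (14.4 to 16.8%) and 16.2% of the list. Each neighbouring pair was counted from both its members, so the 134 come from 67 pairs. The 554 pairs of a short and a longer domain enter both groups, and the intervals do not allow for this. The median neighbour was 20 kb long (18 to 22 kb) beside short domains and 22 kb (21 to 22.5 kb) beside longer ones, intervals that overlap. Among neighbours at most 2 kb away the order of the shares turned, with 19.9% short beside short domains and 22.2% beside longer ones. Of the 343 short domains with a neighbour on each side, 16 had 2 short neighbours, 102 had 1 and 225 had none. In 77 of the 343 (22.4%, 18.1 to 27.2%) at least 1 neighbour exceeded 100 kb, against 348 of 1771 longer domains (19.6%, 17.8 to 21.6%). The larger neighbour was a median of 4.73 times as long as the short domain itself (quartiles 2.32 and 11.0). This ratio is large by construction, as it sets the larger of 2 neighbours against a length of at most 10 kb. It was not computed for longer domains.

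The ends of short domains often lay close to the next domain. No 2 domains of the list touch, and the smallest gap is 0.5 kb. The median gap at the ends of short domains was 2.5 kb (interval 2 to 2.5 kb, n = 688 ends), against 4 kb (3.5 to 4 kb, n = 3552) at those of longer domains. Each gap was counted at both its ends, so the 554 gaps between a short and a longer domain are in both groups. The 67 gaps between short domains are each counted from both sides. The intervals treat these ends as separate observations, which they are not. Gaps of at most 2 kb were found at 49.6% of the ends of short domains (45.8 to 53.4%) and at 34.7% of those of longer domains (33.1 to 36.2%). The share was lower in each longer class, with 42.8% for domains over 10 to 20 kb, 34.7% over 20 to 50 kb, 28.3% over 50 to 100 kb and 17.2% over 100 kb. Wide gaps were as common at short domains: 12.5% of their ends faced a gap over 20 kb, against 12.7% of the ends of longer domains.

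Both ends were within 2 kb of a neighbour in 84 of 343 short domains, or 24.5% (20.0 to 29.4%), beside 14.5% over all domains with 2 neighbours. Among longer domains it was 222 of 1771, or 12.5%. Another 173 short domains had 1 such end and 86 had none. The left ends, with 46.6% at most 2 kb from the next domain (41.3 to 52.1%), and the right ends, with 52.5% (47.0 to 57.8%), had overlapping intervals.

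The grid on which domain ends lie moved with these gaps. All positions of the list are multiples of 500 bp. Of the short domains 27.8% had both ends on multiples of 1 kb, against 36.7% of domains over 10 to 20 kb, 80.4% over 20 to 50 kb, 97.3% over 50 to 100 kb, and all 233 domains over 100 kb, of which 48.1% had both ends on multiples of 5 kb. A gap of 0.5 kb was found at 15.6% of the ends of short domains and at 6.00% of those of longer ones. With only domains that had an end off the 1 kb grid, 47.8% of the ends of short domains and 41.9% of those of longer ones were within 2 kb of the next domain, and the medians were 2.5 and 3 kb. Against domains over 10 to 20 kb under the same restriction the medians were equal, at 2.5 kb, and the shares were 47.8 and 43.7%. The difference in gaps was thus smaller among domains with an end off the 1 kb grid. Ends placed in steps of 500 bp can also fall on multiples of 1 kb, so this restriction does not separate domains by the grid used.

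Gaps also differed with the length of the partner. Where a short domain faced a short one the median gap was 2 kb (1.5 to 5 kb, n = 67 pairs), and facing a domain over 10 to 20 kb it was 2 kb (1.5 to 2 kb, n = 214). Facing a domain over 100 kb it was 5.75 kb (4.5 to 7.5 kb, n = 84), and 25% of those pairs were at most 2 kb apart (16.2 to 35.6%). Pairs of longer domains had a median gap of 4 kb (4 to 4.5 kb, n = 1499).

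Few short domains were isolated on each side. The smaller of the 2 gaps was widest at 22354501 to 22364000 on 2L, with 163.5 kb before it and 62 kb after it. It was followed by 1199001 to 1206500 on 3L (99 and 41.5 kb), 18741001 to 18749500 on 3L (47 and 35.5 kb), 8518501 to 8527500 on 3L (76.5 and 30.5 kb) and 6456501 to 6466000 on 2L (30.5 and 28 kb). In all, 6 of 343 short domains had over 20 kb free on each side (1.75%), against 42 of 1771 longer ones (2.37%).

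**Figure D3:**
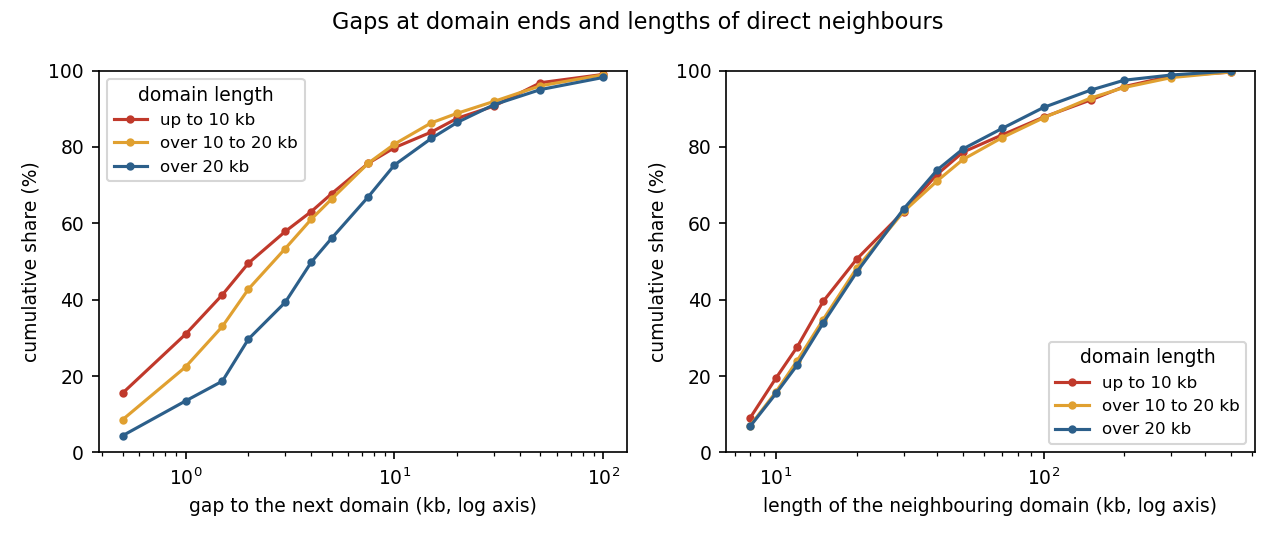
Cumulative share of domain ends by the gap to the next domain (left, log axis in kb) and of direct neighbours by their length (right, log axis in kb), for domains up to 10 kb, over 10 to 20 kb and over 20 kb. The gap curve of the short domains lies highest up to a few kb, at 49.6% within 2 kb, while the curves of neighbour length lie close together.

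The authors scored every domain in 5 columns. The one named score is taken here as the main score of the domain, uVarScore and lVarScore as its upper and lower variance scores, and upSign and loSign as its upper and lower sign scores, after their names; none has a stated scale. Columns of these names are written by Arrowhead, the domain caller of Juicer, in which the sign scores tell how uniformly the contacts on either side of a domain corner point one way and the variance scores how much they scatter. That this caller made the list is not stated in the sources used here. All these values come from the map that defined the domains.

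Short domains scored lower than longer ones. The median score was 1.05 in short domains (interval 1.03 to 1.09, quartiles 0.934 and 1.20, n = 345), against 1.35 in longer ones (1.34 to 1.37, quartiles 1.16 and 1.55, n = 1781) and 1.28 in domains over 10 to 20 kb (1.25 to 1.31, n = 675). Of the short domains 42 (12.2%) reached the median score of the list. Only 2 of 345 (0.580%) were in the upper 25% of the list, set at a score of 1.51, where by the definition of that class 25% of all domains lie. Conversely, 76 short domains were in the lowest 10% of the list, a class of 213 domains, and made up 35.7% of it. The lowest scores of the list were not theirs, however: the minimum was 0.701 among short domains and 0.0464 among longer ones.

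Among the short domains, scores were higher at greater length (Spearman rho = 0.53 across 345 domains of 1 map, which share its depth). The median was 0.842 at 6 kb, 0.925 at 7 kb, 1.03 at 8 kb, 1.09 at 9 kb and 1.26 at 10 kb. Across longer domains rho was 0.28 (n = 1781). Length is the value the rule used, so the lower scores of short domains cannot be told apart from their length. Short domains are not read as weaker domains from this.

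The sign scores followed the same order more tightly. They are not a separate line of evidence, since across the 345 short domains score had rho = 0.79 with upSign and 0.77 with loSign. Median upSign was 0.641 in short domains (0.617 to 0.656) and 0.811 in longer ones (0.804 to 0.816), and median loSign was 0.641 (0.625 to 0.664) and 0.811 (0.805 to 0.818). The highest upSign found at a given length increased in small steps, with 0.509 at 6 kb, 0.652 at 7 kb, 0.708 at 8 kb, 0.767 at 9 kb and 0.809 at 10 kb, and it reached 0.904 at 15 kb. The highest loSign was the same as the highest upSign at 8, 9 and 10 kb. No domain up to 9 kb reached the list median upSign of 0.781. The upper end of the sign scores thus moved with length, the value the rule used. Their lower medians in short domains are therefore not a finding apart from length. At the other side no short domain had a sign score under 0.5, and 13 of 345 (3.77%) had 1 or both at exactly 0.5, among them 8 of the 9 domains of 6 kb. Domains over 10 to 20 kb had none under 0.5 either (0 of 675), whereas 24 longer domains did (1.35% of 1781), and the shortest of those was 31 kb long. At 6 kb the values thus filled the narrow range from 0.5 to 0.509.

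The variance scores were lower too, but overlapped more with those of longer domains. The list median was reached by 34.8% of short domains for uVarScore and 37.1% for lVarScore, against 12.2% for score. Median uVarScore was 0.0364 in short domains (0.0348 to 0.0393), against 0.0465 in longer ones (0.0451 to 0.0477) and 0.0457 in those over 10 to 20 kb (0.0441 to 0.0477). Median lVarScore was 0.0380 (0.0360 to 0.0406) in short domains, against 0.0462 (0.0448 to 0.0476) and 0.0451 (0.0433 to 0.0473) in the same 2 classes. Above 10 kb these medians stayed between 0.0451 and 0.0507 in every length class. Among short domains they did not follow length closely (rho = 0.14 for uVarScore and 0.04 for lVarScore, n = 345). The 2 variance scores of a short domain were only loosely related (rho = 0.21, n = 345, against 0.40 in longer domains, n = 1781), while its 2 sign scores went together (rho = 0.56 against 0.60).

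**Figure D4:**
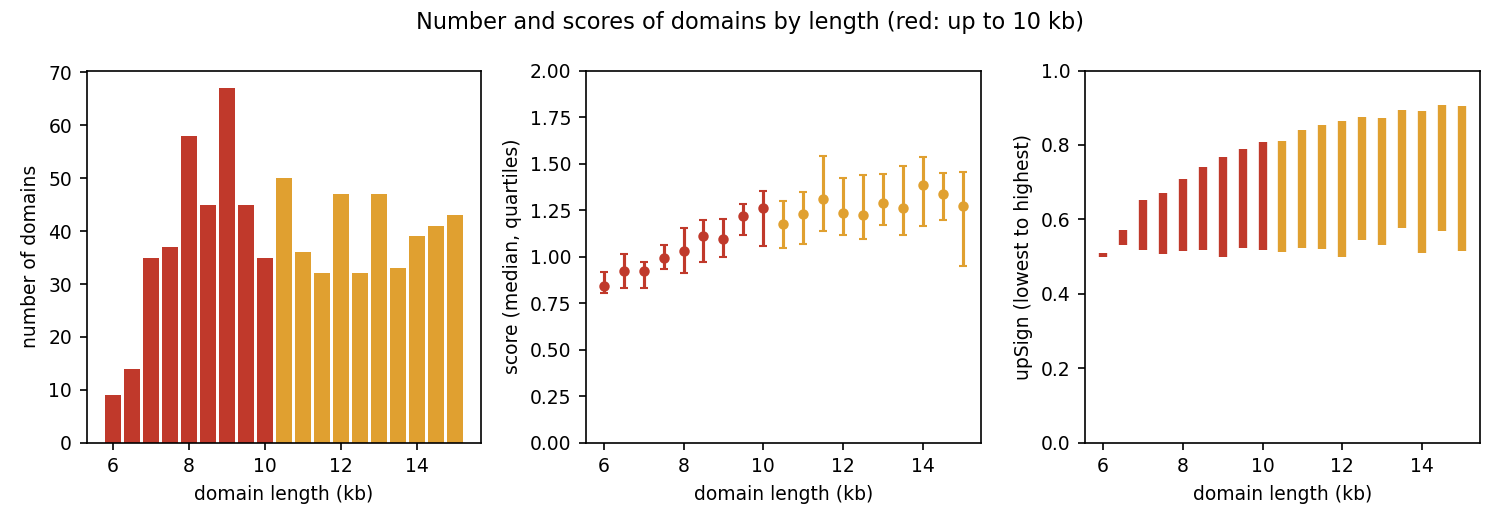
Domains by length in steps of 0.5 kb, with short domains in red: their number (left), the median score with its quartiles (middle), and the range of upSign from the lowest to the highest domain (right). The upper end of upSign is 0.509 at 6 kb and 0.809 at 10 kb, and no domain of these lengths lies under 0.5.

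The highest score of a short domain, 1.58, belonged to 5117001 to 5127000 on 3L. This domain was asymmetric, with a uVarScore of 0.154 against an lVarScore of 0.0398, and lay 0.5 kb before an 18 kb domain and 17 kb after one of 265 kb. The second, 1.52, was 6736501 to 6746500 on 3L, set between domains of 186 and 180 kb at gaps of 4.5 and 3.5 kb. These were the 2 short domains in the upper 25% of the list. The next were on 2R, at 13423501 to 13433000 (1.46), 18484001 to 18494000 (1.46) and 12661501 to 12670500 (1.46), and all 5 were 9 to 10 kb long.

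The lowest scores belonged to 15626501 to 15634000 on X (0.701), 3355001 to 3362000 on 2R (0.734), 122001 to 129000 on 2L (0.740), 20422001 to 20429500 on 3L (0.742) and 20049001 to 20058000 on 2R (0.747). The first 4 of these had variance scores between 0.0111 and 0.0242 and were 7 or 7.5 kb long. The fifth differed from them in being 9 kb long with both sign scores at exactly 0.5 and variance scores of 0.0687 and 0.0939.

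Scores also varied with the surroundings, to a smaller degree. Short domains in rows had a median score of 1.01 (0.963 to 1.04, n = 118), and single ones 1.08 (1.04 to 1.11, n = 227), intervals that overlap. Those with both ends within 2 kb of a neighbour had 1.09 (1.04 to 1.18, n = 84), those with 1 such end 1.07 (1.03 to 1.11, n = 173) and those with none 0.995 (0.974 to 1.04, n = 86). By arm the medians ran from 1.02 on 3L to 1.08 on 2L. None of these groups was matched for length, so a difference apart from length was not tested.

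Loop anchors were seldom at short domains. The 120 loops of the deposited list used 202 distinct anchors, and 2 of the 345 short domains were overlapped by one, 0.580% (exact interval 0.0703 to 2.08%), beside 4.42% over all domains. Among longer domains 92 of 1781 were overlapped, or 5.17% (4.18 to 6.30%). A longer domain offers more sequence to an anchor, so the counts were also set against length. Short domains held 1 anchor midpoint in 2.89 Mb, or 0.345 per Mb (exact Poisson interval 0.00875 to 1.92). Longer domains held 157, or 1.70 per Mb (1.44 to 1.98), and those over 10 to 20 kb held 4, or 0.401 per Mb (0.109 to 1.03). Short domains thus resembled the next length class here, with an interval that reaches up to the rate of longer domains as a whole.

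The domain ends gave the same order. None of the 690 ends of short domains lay within 2 kb of an anchor midpoint. This allows a share of up to 0.435% (3 counts of 690), and the exact interval reaches up to 0.533%. Among longer domains it was 55 of 3562 ends (1.54%, 1.17 to 2.01%), and over 10 to 20 kb it was 12 of 1350 (0.889%, 0.460 to 1.55%). Within 5 kb it was 4 ends of short domains (0.580%, 0.158 to 1.48%), against 84 ends of longer domains (2.36%, 1.89 to 2.91%) and 16 of 1350 ends of domains over 10 to 20 kb (1.19%, 0.679 to 1.92%). At both distances the intervals of short domains and of the next class overlap. Within 50 kb of an anchor lay 7.54% of short domains (4.98 to 10.8%), against 12.9% of longer ones (11.3 to 14.5%) and 7.56% of those over 10 to 20 kb (5.68 to 9.81%). The medians were close together: the nearest anchor was a median of 400.5 kb from a short domain (332.5 to 491.5 kb) and 400 kb from a longer one (372 to 432.5 kb).

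Both overlapped short domains were on 2R, so without that arm the count was 0. The domain 11453501 to 11461000 (7.5 kb, score 0.930) contained the whole anchor 11457001 to 11459001, and lay 0.5 kb after a 24 kb domain and 1 kb before one of 88 kb. The domain 16123001 to 16132000 (9 kb, score 1.33) shared 1 kb at its start with the anchor 16114001 to 16124001, which otherwise covered the 3 kb gap and the end of the 470 kb domain before it. No loop joined the start of a short domain to its end, at a tolerance of 5 or of 10 kb (0 of 345, exact interval up to 1.06%). Of the 1781 longer domains 12 (0.674%) and 17 (0.955%) had such a loop. Among those over 10 to 20 kb it was 1 of 675 (0.148%) at each tolerance, so short domains resembled the next class here too. The shortest loop of the list spans 10 kb. A loop of exactly a short domain's length would be at or below that span, while the tolerances admit longer loops.

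**Figure D5:**
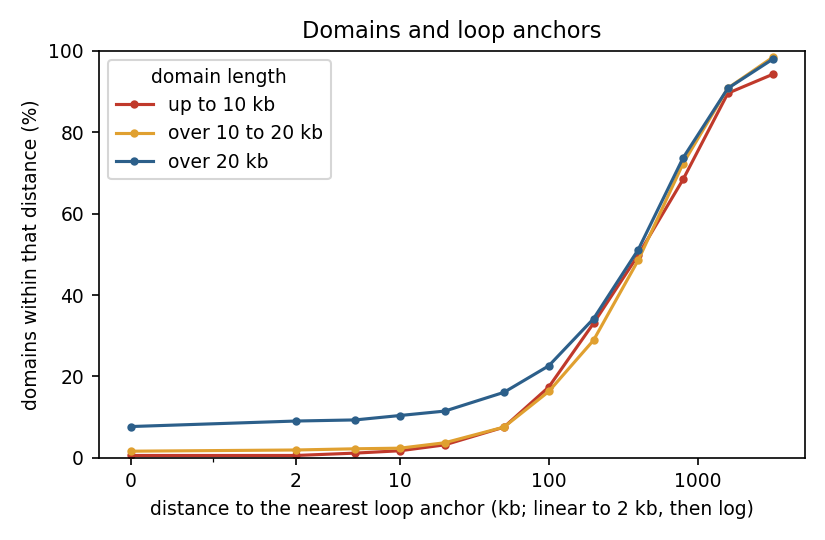
Share of domains within a given distance of the nearest loop anchor (kb, linear to 2 kb and logarithmic beyond), for domains up to 10 kb, over 10 to 20 kb and over 20 kb. At 0 kb, where an anchor overlaps or touches the domain, the short domains lie lowest, with 1.74% of them within 10 kb against 10.4% of domains over 20 kb, and at 400 kb the shares are 49.9, 48.6 and 51.2% for the 3 classes.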

How the data were processed

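Hi-C libraries of 2 Kc167 samples were combined by the authors into 1 list of domains and 1 list of loops, per the file names. BWA and Juicer served to process the reads on dm3 (BDGP5), per the submitters' processing notes; the sources used here name no version, caller or setting. Per the file headers, the authors deposited 5 score columns for each domain. Loops carry positions only. Depth is unknown, and no per-sample values were analysed.

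Domains were sorted along each arm, and those of at most 10 kb were taken as short. Gaps run from the end of a domain to the start of the next. Starts are printed as the listed start plus 1, anchors as listed. Overlapping or touching anchors were merged. An arm extends from 0 to the largest listed position. Shares have exact Clopper-Pearson intervals, counts per length exact Poisson intervals, and medians exact binomial order-statistic intervals (95%). A count of 0 is given the limit of 3 counts. No test was run, since lengths and scores come from 1 map. The code was tested on simulated lists with planted rows, gaps and anchors (Python 3.11.15, pandas 2.3.3, NumPy 2.4.6, SciPy 1.17.1). The members and rules were chosen with earlier results of these data known. Named regions are the shortest domains, the 5 highest and 5 lowest scores, the rows of 5, the 5 with the widest smaller gap and those overlapped by an anchor; the row of 4, the 1 Mb windows and the arm ends were chosen after their values were seen. Gene positions were not used, as no annotation of the dm3 build was at hand.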

Additional observations from a re-analysis of the deposited data

How the results depend on the processing

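Leaving out a sample could not be tried. No paired analysis was possible because both samples were pooled before listing. Each measure was recomputed under the alternatives, 135 values in all; 105 stayed inside the interval of the value reported (or, for the number of short domains, within 1.5 times), 27 moved outside it and 3 turned the order of short and longer domains. Of the 105, 18 could not move by construction, since only the longer domains changed or chromosome 4, which has no short domain, was left out. Another of them left no difference in the median gap (2.5 kb in each class, with ends off the 1 kb grid and against domains over 10 to 20 kb). The turned ones concern neighbours: within 2 kb, 19.9% of neighbours were short beside short domains and 22.2% beside longer ones, with median lengths of 18 and 17 kb, and among domains at or above the median score the median neighbour was 38 kb beside short domains and 30.5 kb beside longer ones. The cause was not tested. With a limit of 8 kb there were 153 short domains (7.20%), 21.6% of them in rows, 11.1% of neighbours short, and medians of 0.963 for score and 0.0324 for uVarScore. With a limit of 12 kb the short domains were 24.0% of the list, 47.5% were in rows, 27.5% of neighbours were short and the median score was 1.11. With only domains at or above the median score, which removes neighbours and so widens gaps by construction, 42 short domains were left (3.95%), 7.14% in rows, with 4.82% short neighbours, a median gap of 8 kb, 32.5% of ends within 2 kb, medians of 1.36 for score, 0.0494 for uVarScore and 0.0475 for lVarScore, and 2.38% overlapped by an anchor. Rows ended by gaps over 2 or 10 kb held 18.3 and 28.1% of short domains. Gaps of at most 1 kb were at 31.0% and of at most 5 kb at 67.7% of their ends, against 16.9 and 60.0% for longer domains. Without 2R the shares overlapped by an anchor and of ends within 5 kb of one were 0%, as was the share of ends within 2 kb of one over all arms. With any 1 arm left out, 47.4 to 51.7% of ends were within 2 kb of the next domain and the median score was 1.04 to 1.07. The alternatives on the 1 kb grid, and the gaps set against domains over 10 to 20 kb, were chosen after seeing the data. The planned description of genes was not run. Depth could not be assessed.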

Other observations

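Some short domains separated very long ones. Of the 343 with a neighbour on each side, 6 lay between 2 domains over 100 kb, or 1.75% (exact interval 0.645 to 3.77%), against 30 of 1771 longer domains (1.69%, 1.15 to 2.41%). Among domains over 10 to 20 kb it was 16 of 674 (2.37%). Besides the one with the second highest score, the short ones were 1492501 to 1502500 on 2L (10 kb, score 1.05), 21020501 to 21027000 (6.5 kb, 0.923), 22058501 to 22068500 (10 kb, 1.43) and 22864501 to 22872000 (7.5 kb, 1.09) on 3L, and 22543001 to 22551500 on 3R (8.5 kb, 1.37). Of the 6, 4 were on 3L, which held 70 of the 345 short domains. With so few regions, no preference for an arm is read from this. The greatest contrast with a neighbour was at 12469501 to 12477000 on X, a 7.5 kb domain of score 0.898 that followed a 540 kb domain, 72 times its length, at a gap of 4.5 kb. These regions were chosen after their values were seen.

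Of the 202 loop anchors, 44 had their midpoint between domains, and 7 of these (15.9%, 6.64 to 30.1%) had a short domain on 1 side, while 621 of the 2120 neighbouring pairs (29.3%) had a short member. The share of pairs does not allow for gap width. Median gaps were 2 kb between short domains, 2.5 kb between a short and a longer one, and 4 kb between longer ones. Between the anchors of a loop under 1 Mb lay 1 short domain (0.290%, 0.00734 to 1.60%), against 19 of 1781 longer domains (1.07%, 0.643 to 1.66%) and 1 of 675 over 10 to 20 kb (0.148%). The short one was at 21119001 to 21126000 on 3R (7 kb, score 0.805), inside a loop of 213.5 kb.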
